A study of Mus musculus with 12 samples.

Results

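CD300a, CD300lb, CD300ld, CD300lf, CD200R1, SIRPα and Siglec-E are cell surface receptors of myeloid cells, and their genes, Cd300a, Cd300lb, Cd300ld, Cd300lf, Cd200r1, Sirpa and Siglece, were followed in mouse peritoneal macrophages (PMφs). The genes were chosen by name, as 7 of the 43278 gene symbols in the expression table, with earlier results of the same libraries in view. Their own values, and whether they passed the threshold in the fit across all genes, are therefore a description at every place below. The lists of other genes were also drawn up with earlier results known. Their adjusted p-values thus belong to genes picked in that way and are not independent tests. The PMφs came from wild-type (WT) C57BL/6J mice of both sexes, 8 to 12 weeks old. The cavity was lavaged 4 days after a thioglycolate injection, and adherent cells were used after 18 h in culture. Control PMφs received neither agent, oxLDL PMφs received 100 µg/ml human medium oxidized low-density lipoprotein (oxLDL) for 24 h, LPS PMφs received 10 ng/ml ultrapure LPS, and oxLDL+LPS PMφs received oxLDL and then LPS. There were 3 libraries of poly(A) RNA per group. For each experiment, per the study's methods, the cells of several mice were mixed and shared out over the 4 groups. A library thus stands for a pool and not for an animal. The labels give only a replicate number, which is read here as marking the pool. The study's methods give LPS exposures of up to 3 or 6 h, and the exact time for these cultures is not given in the sources used here. The design asks how oxLDL loading alters the macrophage transcriptome before and after LPS.

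Receptors of this kind set the threshold of myeloid activation. CD300a, CD300lf, SIRPα and Siglec-E carry tyrosine motifs (ITIMs) in their cytoplasmic tails, which recruit the phosphatases SHP-1 and SHP-2, the products of Ptpn6 and Ptpn11. CD200R1 has no such motif and signals through DOK2 and RasGAP. CD300lb and CD300ld have short tails and pair with the activating adaptors DAP12 (Tyrobp) and FcRγ (Fcer1g), so the common heading of inhibitory receptors does not suit them. CD47 is the ligand of SIRPα, CD200 is the ligand of CD200R1, Siglec-E binds sialic acids, and CD300a and CD300lf bind phospholipids exposed on dying cells.

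The 4 Cd300 genes lie in a cluster on chromosome 11 (GRCm38). Cd300a occupies chr11:114890041-114904654 on the plus strand, and Cd300lb (chr11:114922781-114934386), Cd300ld (chr11:114982274-114989922) and Cd300lf (chr11:115116214-115133992) lie on the minus strand. Cd200r1 is at chr16:44765736-44794978 and Sirpa at chr2:129592835-129632228, both on the plus strand, and Siglece is at chr7:43651070-43660161 on the minus strand. No exon of these genes overlaps an exon of another gene in the GENCODE release used here, which is later than the one the authors counted over. Near-identical relatives in the Cd300, Cd200r, Sirp and Siglec families may share reads with them, and how such reads were counted is not stated.

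The 250 bases before the RefSeq start (GRCm38.p6) are shown for the 3 genes with the largest LPS differences, of which Cd300a and Cd300lb were lower and Siglece higher with LPS. Capitals mark a match to one of the motifs searched on both strands. The motifs were GAGGAAGT, bound by PU.1, and AGGAAGT, its ETS core, together with TGANTCA for AP-1, TTNNGCAA for C/EBP, TATAAA for the TATA box, and the kappa-B and ISRE motifs, each a run of 10 bases in which 2 may be any base.
Cd300a, chr11:114889791-114890040, plus strand: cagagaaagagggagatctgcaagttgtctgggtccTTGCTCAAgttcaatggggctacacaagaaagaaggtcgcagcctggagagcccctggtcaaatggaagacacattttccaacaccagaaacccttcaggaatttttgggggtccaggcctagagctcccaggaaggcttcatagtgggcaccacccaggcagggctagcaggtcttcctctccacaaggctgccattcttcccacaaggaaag
Cd300lb, chr11:114934372-114934621, minus strand: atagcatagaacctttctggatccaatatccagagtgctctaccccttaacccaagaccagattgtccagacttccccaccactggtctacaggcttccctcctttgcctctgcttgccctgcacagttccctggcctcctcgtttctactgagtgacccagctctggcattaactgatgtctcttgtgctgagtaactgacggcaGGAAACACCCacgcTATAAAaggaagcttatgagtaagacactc
Siglece, chr7:43660162-43660411, minus strand: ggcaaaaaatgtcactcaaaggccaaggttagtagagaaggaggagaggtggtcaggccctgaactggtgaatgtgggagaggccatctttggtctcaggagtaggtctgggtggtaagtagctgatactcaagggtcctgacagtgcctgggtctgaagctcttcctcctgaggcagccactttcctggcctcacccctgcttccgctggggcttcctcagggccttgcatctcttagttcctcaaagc

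The Cd300a window held a C/EBP match on the other strand, 214 to 207 bases before the start, a motif found in 9.56% of 32851 promoters of the same length. The Cd300lb window held a kappa-B match on the other strand, 44 to 35 bases before the start, and TATAAA 30 to 25 bases before it. These motifs were found in 1.41% and 12.4% of promoters. Cd300ld, whose window is not printed, held AGGAAGT 2 times, at 142 to 136 and 38 to 32 bases before the start, and the first lies inside a GAGGAAGT. The ETS core was found in 7.69% of promoters and GAGGAAGT in 2.44%. Cd300lf held a TATA match on the other strand, 28 to 23 bases before the start. The Siglece window held none of the 7 motifs, which says only that these letters were not in it. A match is a stretch of letters and not evidence of a bound factor. RefSeq promoters were at hand for 5 of the 7 genes, those on chromosomes 11 and 7.

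The normalized count is the authors' gene count after scaling by a factor for each library and rounding. It summed to between 17152972 and 26384551 per library. With library factors estimated from the spacing of the values, this is an estimated 16720000 to 26170000 counted reads. The sums were higher in the LPS and oxLDL+LPS libraries (22071853 to 26384551) than in the others (17152972 to 17709731). The cells had the macrophage markers named on their label, and the summed count of 8 such genes, among them Adgre1, Cd68 and Csf1r, was 231967 to 347950. The sums of B cell (39 to 86), T and NK cell (0 to 7), eosinophil (1 to 13), mast cell (33 to 117) and dendritic cell (54 to 103) markers were small, and Ly6g, Prg2 and Prg3 were at 0 in every library. Neutrophil markers summed to 41 to 63 without LPS and 81 to 260 with it, which came from S100a8 in the main, a gene that macrophages can express. Mesothelial and fibroblast markers summed to 4893 to 29258 and were highest in number 1 and lowest in number 3 in each of the 4 groups. Their part in the receptor values was not tested, and in bulk RNA fewer cells of a type and less RNA per cell cannot be told apart.

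In control PMφs, Sirpa had by far the highest level per length of the 7 genes. Its normalized count per kb of exon was 6688 ± 446 (SD, n = 3). Cd300lb followed at 2104 ± 293, Cd300ld at 1726 ± 371 and Cd300a at 1150 ± 90.9. Cd300lf at 478 ± 173 and Cd200r1 at 474 ± 73.2 were lower, and Siglece was close to absent at 2.88 ± 1.65. The ranges of Cd300lb and Cd300ld overlapped, as did those of Cd300lf and Cd200r1, and the other neighbours in the order were separate.

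With oxLDL alone the order per kb was Sirpa (6195 ± 656), Cd300lb (2270 ± 279), Cd300ld (1660 ± 296), Cd300a (1230 ± 60.1), Cd200r1 (533 ± 115), Cd300lf (402 ± 169) and Siglece (2.16 ± 1.43), and among neighbours the ranges of Cd200r1 and Cd300lf alone overlapped. The order was different with LPS. Sirpa (5051 ± 428 per kb) remained first and Cd300ld (897 ± 175) came second. Cd200r1 (231 ± 69.0), Cd300lb (224 ± 133), Cd300lf (222 ± 70.5), Cd300a (149 ± 13.0) and Siglece (122 ± 53.9) followed with overlapping ranges between neighbours. In oxLDL+LPS PMφs the order per kb was Sirpa (4991 ± 339), Cd300ld (932 ± 224), Cd300lb (564 ± 403), Cd200r1 (470 ± 184), Cd300a (270 ± 75.8), Cd300lf (219 ± 79.4) and Siglece (90.9 ± 33.1), and from Cd300ld to Cd300lf each range overlapped the next.

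**Figure D1:**
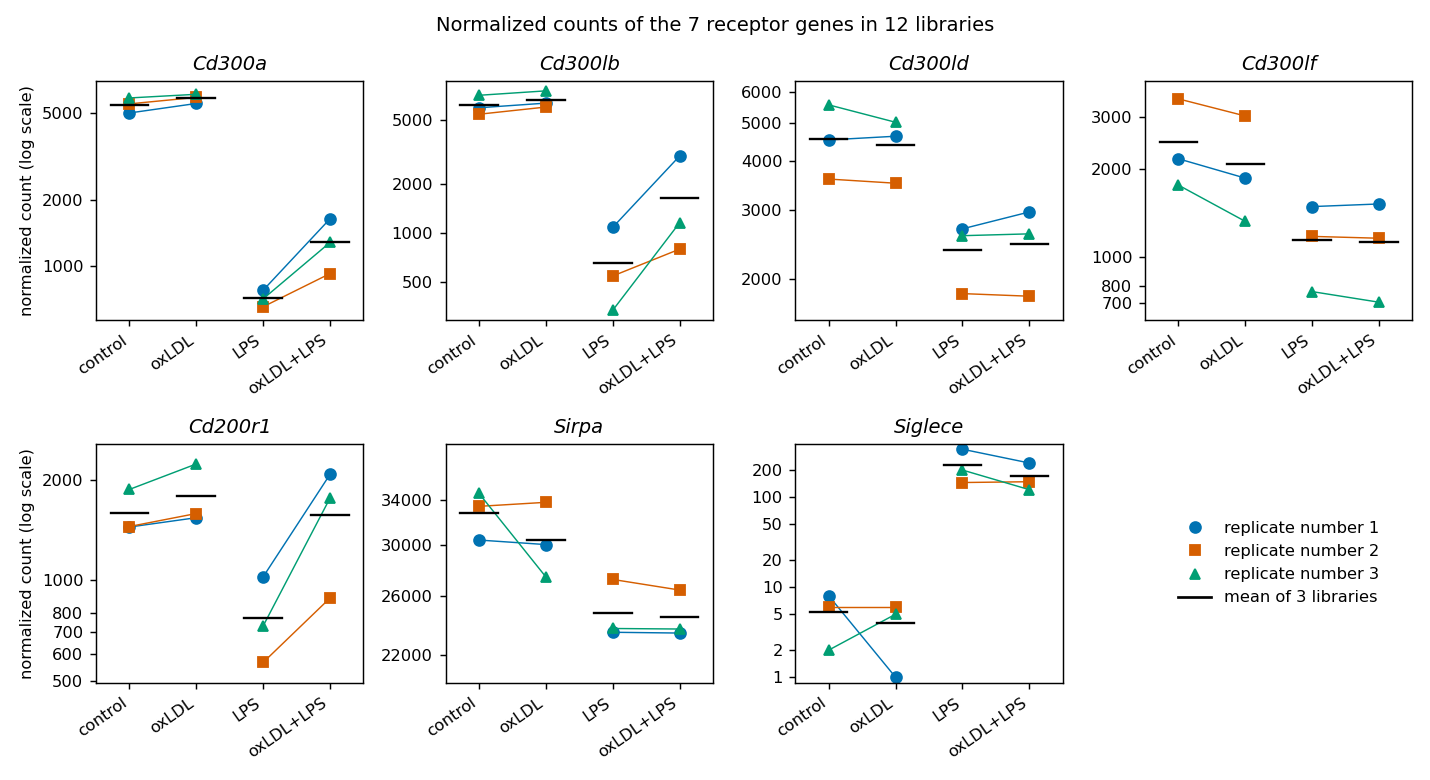
Normalized counts (log scale, a separate range for each gene) of the 7 receptor genes in the 12 libraries; points are libraries, lines join control with oxLDL and LPS with oxLDL+LPS libraries of the same replicate number, and black bars are means of 3 libraries. Cd300a, Cd300lb and Cd200r1 lie higher in oxLDL+LPS than in LPS libraries within each replicate number, and Siglece lies between 1 and 8 without LPS and between 120 and 337 with it.

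LPS lowered 6 of the 7 receptor transcripts and raised Siglece. In the comparison of LPS with control PMφs, all 7 genes passed the threshold (adjusted p under 0.1), a threshold that 61.7% of the 13023 genes tested passed, with 31.4% of all genes higher and 30.3% lower. The genes had been chosen with these values known, so nothing is read from that count. Their median log2 difference was -1.07, beside -0.00 for all genes tested. With every library scaled to the same total, an alternative chosen after the totals were seen, the median of all genes moved to -0.48 and 23.1% of the genes called were higher in place of 50.9%. All 7 receptor genes kept their direction under that scaling.

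Cd300a, the ITIM receptor for phosphatidylserine and phosphatidylethanolamine, had normalized counts of 4994, 5497 and 5851 in control libraries and 771, 648 and 704 in LPS libraries. The groups were far apart and each was tight, and the mean was 7.70-fold lower with LPS. On the scale of log2(normalized count + 1), the difference was -2.94 ± 0.10 (SE). Cd300lb, which pairs with DAP12, had 5928, 5408 and 7080 in control and 1083, 542 and 333 in LPS libraries. Its LPS libraries differed more among themselves, with the highest in number 1 and the lowest in number 3. The log2 difference was -3.39 ± 0.37, and the mean was 9.41-fold lower.

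Cd300ld, which pairs with FcRγ, fell less. It had 4531, 3602 and 5565 in control and 2690, 1840 and 2584 in LPS libraries, a log2 difference of -0.94 ± 0.20. Number 2 was the lowest library of the gene in both groups, and the groups did not overlap. Cd300lf, an ITIM receptor of the same cluster, had 2165, 3463 and 1761 in control and 1488, 1178 and 764 in LPS libraries, a log2 difference of -1.10 ± 0.30. Its groups did not overlap either, although the control libraries spread from 1761 to 3463.

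Cd200r1 had 1443, 1448 and 1870 in control and 1023, 567 and 729 in LPS libraries, a log2 difference of -1.07 ± 0.21. Every LPS library was below every control library. Sirpa, whose product is the CD47 receptor, had 30417, 33441 and 34678 in control and 23468, 27227 and 23719 in LPS libraries, a log2 difference of -0.41 ± 0.13, the smallest of the 7. Without control replicate 3 the Sirpa difference was -0.37 ± 0.16 and no longer passed the threshold.

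Siglece, the gene of the sialic acid receptor, had 8, 6 and 2 in control and 337, 144 and 198 in LPS libraries. The mean was 42.4-fold higher with LPS, and the log2 difference was 5.22 ± 0.48. The gene passed the filter on low values only through its LPS libraries, so it had to differ once tested, and with any 1 LPS library left out it was not tested. Because the control values were so low, the difference depended on the pseudocount and was 5.37 with a pseudocount of 0.5 and 4.45 with one of 5. Within each of the 3 replicate numbers the 6 falling genes were lower with LPS and Siglece was higher. The LPS and control groups did not overlap for any of the 7 genes, as for 63.2% of all genes tested.

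The LPS difference was next taken in oxLDL-loaded PMφs. In oxLDL+LPS against oxLDL libraries, 6 of the 7 genes passed the threshold, which 54.5% of 12900 genes passed. Siglece was among the 6, and its call had to follow once it was tested. Cd300a had 5520, 5886 and 6081 in oxLDL libraries and 1637, 919 and 1276 in oxLDL+LPS libraries, a log2 difference of -2.23 ± 0.19. Cd300lb had 6334, 5990 and 7540 in oxLDL and 2987, 794 and 1156 in oxLDL+LPS libraries, a difference of -2.23 ± 0.43. Both genes were still clearly lower with LPS, and for both number 1 was the highest oxLDL+LPS library.

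Cd300ld (4630, 3515 and 5025 against 2970, 1812 and 2612) differed by -0.85 ± 0.21 on the log2 scale. Cd300lf had 1860, 3028 and 1325 in oxLDL and 1519, 1161 and 703 in oxLDL+LPS libraries, a difference of -0.86 ± 0.36, and its groups overlapped. Sirpa had 30032, 33822 and 27417 in oxLDL and 23417, 26427 and 23684 in oxLDL+LPS libraries, a difference of -0.31 ± 0.13. The calls of the last 2 genes were the least secure. The Cd300lf call was lost without either of 2 oxLDL libraries (replicates 1 and 2) or either of 2 oxLDL+LPS libraries (replicates 2 and 3), with differences of -0.92 to -0.55, and the Sirpa call without oxLDL replicates 1 or 2 or oxLDL+LPS replicates 1 or 3, with differences of -0.32 to -0.23.

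Cd200r1 was the gene that did not pass. It had 1539, 1584 and 2229 in oxLDL and 2074, 884 and 1761 in oxLDL+LPS libraries, and the groups overlapped. The log2 difference was -0.25 ± 0.31, with a 95% interval from -0.99 to 0.49. It was higher with LPS in number 1 (0.43) and lower in numbers 2 (-0.84) and 3 (-0.34), and without oxLDL+LPS replicate 2 the difference was 0.12. Siglece had 1, 6 and 5 in oxLDL and 237, 147 and 120 in oxLDL+LPS libraries, a difference of 5.21 ± 0.53, close to that without oxLDL. In all, the groups did not overlap for 5 of the 7 genes, as for 57.6% of all genes tested.

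**Figure D2:**
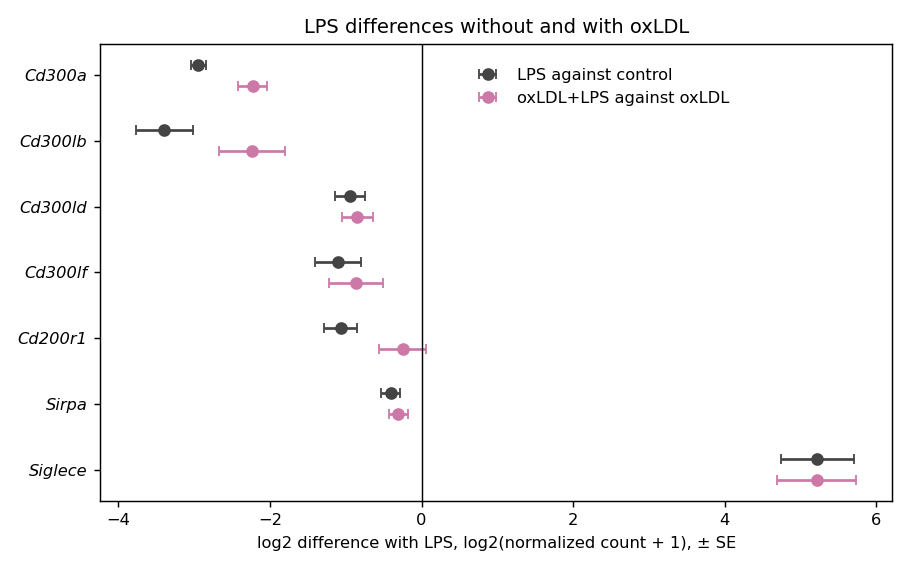
Log2 differences with LPS, on the scale of log2(normalized count + 1), for the 7 receptor genes without oxLDL (dark) and with oxLDL (pink); points are fitted differences and bars are ± SE, with 3 libraries per group. Cd300a, Cd300lb and Cd200r1 lie closer to 0 with oxLDL (-2.23, -2.23 and -0.25) than without it (-2.94, -3.39 and -1.07), and the difference between the 2 LPS effects passed the threshold for none of the 7.

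oxLDL alone left the 7 genes near their control levels. In oxLDL against control libraries 0 genes of 12751 passed the threshold (0.0%) with limma, against 381 at an unadjusted p under 0.05, and 0 of the 6 receptor genes tested did. Siglece was too low to be tested, with 8, 6 and 2 in control and 1, 6 and 5 in oxLDL libraries. Log2 differences ran from -0.27 ± 0.34 for Cd300lf to 0.16 ± 0.17 for Cd200r1, with Cd300a at 0.10 ± 0.08, Cd300lb at 0.11 ± 0.13, Cd300ld at -0.05 ± 0.18 and Sirpa at -0.11 ± 0.11. The groups overlapped for each of the 6 genes.

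Same-numbered libraries, read here as coming from the same pool, deviated from their group means together. With the replicate number as a block, 601 genes (4.71%) passed in the oxLDL comparison and 1 receptor gene was among them, chosen like the others with these values known. Cd300lf was lower with oxLDL in each number (-0.22, -0.19 and -0.41), with a blocked difference of -0.27 ± 0.05 (SE). It did not pass in the blocked fit without number 2. Cd300a (0.14, 0.10 and 0.06), Cd300lb (0.10, 0.15 and 0.09) and Cd200r1 (0.09, 0.13 and 0.25) were each higher in the 3 numbers but did not pass. The blocked 95% intervals reached from 0.00 to 0.20 for Cd300a, from 0.01 to 0.21 for Cd300lb and from 0.05 to 0.26 for Cd200r1. Higher values in all 3 numbers were found for 17.5% of all genes tested.

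With LPS present, the oxLDL-loaded cells had more Cd300a, Cd300lb and Cd200r1 transcript than unloaded cells of the same replicate number. Cd300a rose from 771 to 1637, from 648 to 919 and from 704 to 1276 in numbers 1, 2 and 3, and every oxLDL+LPS library was above every LPS library. Groups that do not overlap were found for 12.6% of the genes tested in this comparison. Cd300lb went from 1083 to 2987, from 542 to 794 and from 333 to 1156. Cd200r1 went from 1023 to 2074, from 567 to 884 and from 729 to 1761. For the last 2 genes the groups overlapped although each pair rose, because number 2 was low in oxLDL+LPS and number 1 was high in LPS. Of all genes tested, 21.0% were higher with oxLDL in all 3 numbers.

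The call depended on the pairing. Without a block, 0 of 12786 genes (0.0%) passed in oxLDL+LPS against LPS libraries, against 890 at an unadjusted p under 0.05, and 0 of the 7 receptor genes did. With the replicate number as a block, 1682 genes (13.2%) passed, of which 565 were higher (4.42% of genes tested), and 3 receptor genes were among them. They had been chosen with these libraries' values known, so this count adds no test. The blocked log2 differences were 0.82 ± 0.11 for Cd300a, 1.27 ± 0.19 for Cd300lb and 0.98 ± 0.11 for Cd200r1. The unblocked errors of the same differences were 0.21, 0.57 and 0.35. With number 3 left out, 0 genes passed in the blocked fit. With number 1 left out, 71 genes passed, Cd300a and Cd200r1 among them, and with number 2 left out 2945 genes passed, among them those 3 and Siglece. Number 2 had the smallest difference of the 3 genes, with 0.50 for Cd300a, 0.55 for Cd300lb and 0.64 for Cd200r1, and without the oxLDL+LPS library of number 2 the unblocked fit called 91 genes, Cd300a among them at 1.03 ± 0.15.

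Of the other 4 genes, Cd300ld, Cd300lf and Sirpa showed little difference between oxLDL+LPS and LPS. Blocked 95% intervals were -0.12 to 0.21 for Cd300ld, -0.20 to 0.13 for Cd300lf and -0.25 to 0.22 for Sirpa. Siglece differed by -0.51, 0.03 and -0.72 in the 3 numbers, with a blocked 95% interval from -0.73 to -0.06, and did not pass. Within the cluster on chromosome 11, then, Cd300a and Cd300lb lay higher with oxLDL in LPS-treated cells in each replicate number. Cd300ld and Cd300lf had differences of both signs among the numbers.

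**Figure D3:**
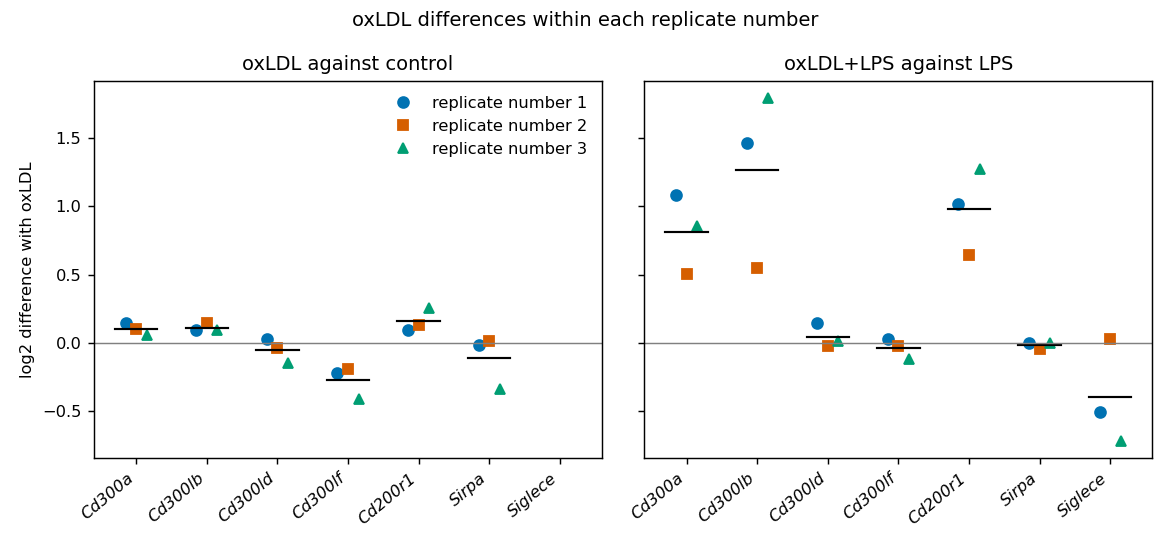
Log2 differences with oxLDL within each replicate number, on the scale of log2(normalized count + 1), for the 7 receptor genes without LPS (left) and with LPS (right); points are the 3 replicate numbers and black bars are their means, and Siglece is left out on the left because it was too low. With LPS the points of Cd300a (0.50 to 1.08), Cd300lb (0.55 to 1.79) and Cd200r1 (0.64 to 1.27) are all above 0.

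Genes that mark the LPS response moved in the opposite direction in the same libraries. All 10 genes of a list of LPS-induced genes were higher with LPS, both without and with oxLDL, but Il6, Il12b and Nos2 were under 10 in every control and oxLDL library and had to be higher once tested. The median log2 difference of the other 7 was 10.31 without oxLDL and 9.99 with it. In oxLDL+LPS against LPS libraries all 10 were lower in each replicate number, 0 passed without the block and 8 passed with it. Of all genes tested, 8.74% were called lower with the block, and 0 genes passed in that fit without number 3. Il6, an inflammatory cytokine, had 2135, 9776 and 14906 in LPS and 261, 4786 and 2683 in oxLDL+LPS libraries. Tnf had 36687, 65418 and 85240 in LPS and 20752, 45676 and 53561 in oxLDL+LPS libraries, and Cxcl10, an interferon-induced chemokine, had 49044, 45227 and 86174 and then 18813, 42411 and 31239. Of the 10 genes, 6 were lowest and 1 was highest in number 1 of the LPS libraries, and 4 were lowest in number 2. All receptor genes but Sirpa were highest in number 1 of the LPS libraries, Siglece, which rose with LPS, among them. Whether the receptor values and the size of the LPS response are connected was not tested.

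The difference between the 2 LPS effects was also tested itself, on all 12 libraries. Of 13482 genes, 0 passed (0.0%) with limma, against 418 at an unadjusted p under 0.05, and 0 passed with the replicate number as a block, against 967. The interaction on the log2 scale was 0.72 ± 0.23 for Cd300a, 1.16 ± 0.65 for Cd300lb and 0.82 ± 0.42 for Cd200r1. For Cd300ld it was 0.10 ± 0.32, for Cd300lf 0.24 ± 0.53, for Sirpa 0.10 ± 0.16 and for Siglece -0.01 ± 0.77. None of the 7 passed, and the wide 95% intervals, such as -0.26 to 2.58 for Cd300lb, do not show that the LPS effects were alike.

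The relatives of CD300 and CD200R were mostly low. Of 11 listed relatives of CD300 and CD200R, 9 were matched in the table and 2 passed the filter in LPS against control, where the list's median log2 difference was 0.32. Cd200r4, a CD200R relative without an inhibitory tail, rose with LPS by 0.79 ± 0.15 on the log2 scale (adjusted p = 0.0028), from 1145, 1464 and 1506 to 2003, 2691 and 2419, so that it and Cd200r1 went opposite ways. It rose in oxLDL-loaded cells as well, by 0.81 ± 0.17 (adjusted p = 0.00569). Cd300e, an activating CD300 receptor of monocytes, was at 0, 0 and 3 in oxLDL and 43, 10 and 50 in oxLDL+LPS libraries. It passed the filter only through the latter and had to differ once tested, so no test is given. Cd300c, Cd300lg, Cd200r2, Cd200r3 and the Cd300ld relatives Gm11710 and Gm11711 stayed at or under 12 in every library.

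Among 10 SIRP and Siglec relatives, of which 9 were tested, 2 rose and 6 fell in LPS against control. Of the latter, Siglec15 was under 10 in each LPS and oxLDL+LPS library and passed the filter only through the others, so it had to be lower once tested, and the median of the other 8 genes was -1.03. Cd33, a Siglec, rose by 1.90 ± 0.55 (adjusted p = 0.0205) and Siglec1, the sialoadhesin CD169, rose by 0.96 ± 0.29 (adjusted p = 0.0236). The Siglec1 rise was 1.90, 0.18 and 0.80 in the 3 numbers and did not pass with equal library totals (0.48 ± 0.32). Siglec15 had 35, 51 and 34 in control and 4, 2 and 7 in LPS libraries. Siglecf fell by 1.62 ± 0.14 (adjusted p = 5.75e-05) and Sirpb1a, a SIRP without an inhibitory tail, by 1.57 ± 0.25 (adjusted p = 0.00114). The 3 Sirpb1 genes are close copies of one another and of Sirpa, and their values of 9 to 254 are uncertain for that reason. In oxLDL-loaded cells 1 relative rose and 6 fell. Siglec1 rose by 1.10 ± 0.25 (adjusted p = 0.00877), Sirpb1a fell by 1.88 ± 0.33 (adjusted p = 0.00304) and Siglecf by 1.73 ± 0.29 (adjusted p = 0.00227), and Siglec15 had 20, 39 and 31 in oxLDL and 9, 6 and 1 in oxLDL+LPS libraries. Cd33 (1.13 ± 0.28) passed there only with the replicate block, as did the CD300 relative Cd300lh (-0.54 ± 0.23).

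Of 23 other inhibitory receptors and their paired partners, 17 were tested, and 9 rose and 6 fell in LPS against control, with a median of 0.58. Pilra, an ITIM receptor, rose most, from 101, 92 and 73 to 4186, 4331 and 5528, a log2 difference of 5.71 ± 0.16 (adjusted p = 2.38e-07). Milr1, the ITIM receptor allergin-1, rose by 3.02 ± 0.13 (adjusted p = 1.33e-06) and Slamf7 by 2.10 ± 0.14 (adjusted p = 1.53e-05). Havcr2, which encodes TIM-3, fell by 3.99 ± 0.16 (adjusted p = 1.07e-06). Vsir, which encodes VISTA and stands in the table as 4632428N05Rik, fell by 2.44 ± 0.10 (adjusted p = 1.31e-06), from 10026, 10625 and 10507 to 1676, 2033 and 2047. Lair1, the collagen receptor with ITIMs, fell by 1.59 ± 0.14 (adjusted p = 6.48e-05). TIM-3 and VISTA carry no classical ITIM. In oxLDL-loaded cells 8 rose and 5 fell, and Clec12a (0.46 ± 0.10) and Clec4a3 (-0.56 ± 0.24) passed as well with the replicate block. The extremes were Pilra (5.48 ± 0.34), Milr1 (2.49 ± 0.11) and Clec4a1 (1.84 ± 0.46) among the rises and Havcr2 (-3.81 ± 0.32), 4632428N05Rik (-2.21 ± 0.07) and Lair1 (-1.15 ± 0.21) among the falls.

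**Figure D4:**
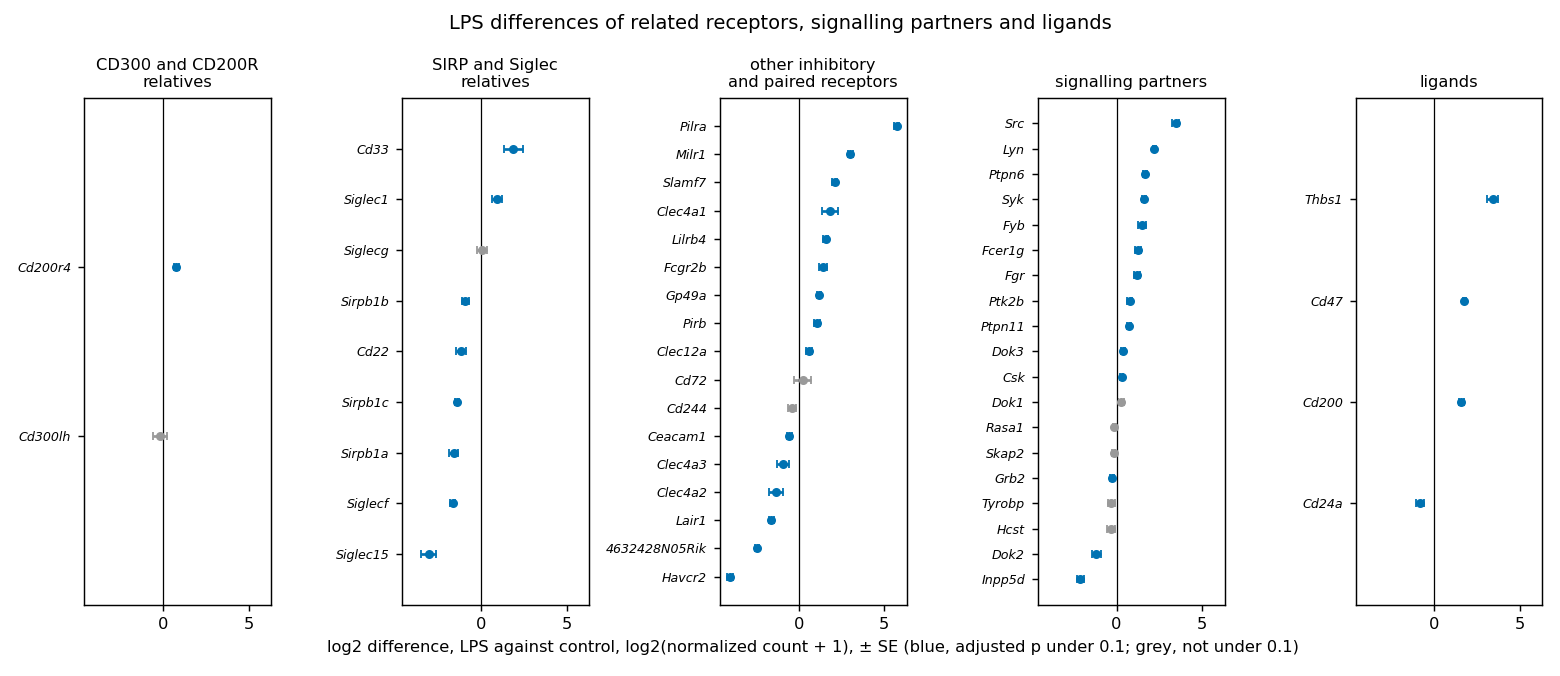
Log2 differences between LPS and control PMφs, on the scale of log2(normalized count + 1), for the tested relatives, other inhibitory and paired receptors, signalling partners (1 not shown) and ligands; points are fitted differences and bars are ± SE, blue where the adjusted p was under 0.1 and grey where it was not. Pilra (5.71), Src (3.44) and Thbs1 (3.40) lie at the top of their panels, and Havcr2 (-3.99), Siglec15 (-3.03, tested only through its control libraries) and Inpp5d (-2.11) at the bottom of theirs.

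Of 20 signalling partners, 12 rose and 3 fell in LPS against control, with a median of 0.56, beside 31.4% and 30.3% of all genes tested. With the replicate block 13 rose and 5 fell, and Dok1 (0.26 ± 0.10), Tyrobp and Hcst (-0.34 ± 0.14) were the ones added. With libraries scaled to the same total 10 rose and 7 fell, and Dok1, Dok3 and Csk (-0.22, -0.09 and -0.18) lay below 0. Src family kinases, which phosphorylate ITIMs, were among the largest rises. Src rose by 3.44 ± 0.21 (adjusted p = 8.53e-06) and Lyn by 2.21 ± 0.10 (adjusted p = 1.51e-06). Inpp5d, the inositol phosphatase SHIP-1, fell by 2.11 ± 0.20 (adjusted p = 7e-05), Dok2 by 1.17 ± 0.27 (adjusted p = 0.0078) and Grb2, an adaptor, by 0.28 ± 0.12 (adjusted p = 0.0748). The Grb2 call was lost without control replicates 2 or 3 or LPS replicates 2 or 3 (-0.30 to -0.20), and number 1 had a difference of 0.01. Dok2 acts downstream of CD200R1, and its normalized counts were 820, 615 and 763 in control and 497, 226 and 300 in LPS libraries.

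The direct partners of the ITIM and short-tailed receptors were added after their values were seen. Ptpn6, SHP-1, rose by 1.65 ± 0.12 with LPS (adjusted p = 2.3e-05), from 2299, 2872 and 2883 to 8267, 7670 and 9199, and Ptpn11, SHP-2, rose by 0.73 ± 0.09 (adjusted p = 0.000419). Fcer1g, the partner of CD300ld, rose by 1.25 ± 0.17 (adjusted p = 0.000501). Tyrobp, the partner of CD300lb, had 9261, 11165 and 13955 in control and 8622, 7948 and 11330 in LPS libraries and did not pass (adjusted p = 0.217), although it passed with the block at -0.30 ± 0.10.

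In oxLDL-loaded cells 12 signalling partners rose and 5 fell with LPS, beside 28.2% and 26.3% of all genes tested, and 10 rose and 8 fell with equal library totals. Rasa1 (-0.23 ± 0.09) and Csk (0.18 ± 0.07, but -0.21 with equal totals) passed only with the replicate block. Src (3.53 ± 0.26) and Lyn (1.84 ± 0.10) were among the largest rises, and Inpp5d (-1.45 ± 0.30), Dok2 (-0.88 ± 0.30) and Hcst, the adaptor DAP10 (-0.45 ± 0.16), had the largest falls. Their adjusted p values were 4e-05, 9.56e-06, 0.00648, 0.0448 and 0.0565 in that order. The Dok2 call was lost without oxLDL replicates 1 or 3 or oxLDL+LPS replicate 3 (-0.85 to -0.81), and the Hcst call without any 1 oxLDL library or without oxLDL+LPS replicate 1 (-0.47 to -0.31).

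Of 5 genes for ligands, 4 were tested, and 3 rose and 1 fell in LPS against control, with a median of 1.65. Cd47, the ligand of SIRPα, rose by 1.74 ± 0.09 (adjusted p = 2.67e-06), from 2328, 2295 and 2460 to 7811, 7554 and 8385. Cd200, the ligand of CD200R1, rose by 1.56 ± 0.15 (adjusted p = 9.3e-05), from 4119, 3658 and 4196 to 9338, 13461 and 12951. Both ligand transcripts were thus higher with LPS in the libraries in which Sirpa and Cd200r1 were lower. Thbs1, thrombospondin 1, which binds CD47, rose by 3.40 ± 0.31 (adjusted p = 6.86e-05), and Cd24a, a sialylated surface protein, fell by 0.85 ± 0.21 (adjusted p = 0.0114). In oxLDL-loaded cells Cd47 (1.60 ± 0.08), Cd200 (0.98 ± 0.19) and Thbs1 (3.24 ± 0.34) rose again, with adjusted p = 5.04e-06, 0.00457 and 0.000236, and Cd24a (-0.57 ± 0.43) passed only with the replicate block (± 0.17).

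In each of the oxLDL comparisons, without and with LPS, 0 of 52 listed genes passed without the block. With the replicate number as a block, 1 rose and 9 fell in oxLDL against control, beside 1.8% and 2.92% of all genes tested. Without numbers 1, 2 and 3 in turn, 4, 2 and 12 listed genes passed, and 0 passed in the blocked fit of all 12 libraries. Milr1 rose (0.28 ± 0.07). Cd24a (-0.95 ± 0.16), Clec12a (-0.71 ± 0.17), Siglecf (-0.53 ± 0.14), Src (-0.34 ± 0.06), Fcgr2b (-0.28 ± 0.05), Cd72 (-0.26 ± 0.07), Siglec1 (-0.25 ± 0.05), Fyb (-0.23 ± 0.05) and Pirb (-0.21 ± 0.05) fell. In oxLDL+LPS against LPS, 6 rose and 10 fell with the block, beside 4.42% and 8.74% of all genes tested. Dok2 (0.41 ± 0.09), Dok1 (0.37 ± 0.08), Inpp5d (0.62 ± 0.12) and Skap2 (0.25 ± 0.08) rose, and Cd22 (0.28 ± 0.09) and Clec4a3 (0.44 ± 0.09) rose as well. The 4 signalling partners that passed thus had the sign of Cd200r1 and Cd300a, but the list as a whole did not. Of its 20 genes, 4 were higher and 8 lower in all 3 numbers, with a median of -0.08. Cd200 (-0.53 ± 0.10), Cd24a (-0.67 ± 0.10), Siglecf (-0.63 ± 0.20), Cd33 (-0.36 ± 0.09), Clec12a (-0.83 ± 0.15), Fcgr2b (-0.72 ± 0.11) and Pilra (-0.55 ± 0.11) were among those that fell. As for the receptors, 0 genes passed in this blocked fit when number 3 was left out.

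For Cd200 and its receptor the oxLDL differences in LPS-treated cells had opposite signs in each replicate number, and the interaction passed for neither gene. Cd47 (-0.245, -0.12 and -0.37) and its receptor gene Sirpa (-0.003, -0.043 and -0.002) had the same sign in each number. Cd200 had 9338, 13461 and 12951 in LPS and 6319, 11082 and 7665 in oxLDL+LPS libraries, beside 1023, 567 and 729 and then 2074, 884 and 1761 for Cd200r1.

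The genes whose pattern over the 12 libraries was most like that of each receptor gene were taken from 13482 genes by Pearson's r on the log2 scale. With the libraries with LPS far apart from those without it, such values are high for many genes and are a description only. Cd300a was followed most closely by Prkag2 and Arrb1 (both r = 0.997), and Arrb1, which encodes β-arrestin 1, had mean normalized counts of 4465 in control, 4219 in oxLDL, 319 in LPS and 676 in oxLDL+LPS libraries. Cd300lb was followed by Fbxo31 (0.993) and 5430435G22Rik (0.991), Cd300ld by Trim29 and Gm14846 (both 0.984), Cd300lf by Gpr35 (0.974) and Gm22 (0.964), and Cd200r1 by Fermt3 (0.979) and Tor4a (0.970). Sirpa was followed by Tbc1d5 (0.969) and Tmem189 (0.967), and Siglece by Gm16464 (0.987) and Gpr84 (0.985). Gpr84, a receptor for medium-chain fatty acids, had a mean of 5.33 in control and in oxLDL, 1748 in LPS and 1320 in oxLDL+LPS libraries. Among the receptor genes themselves, Cd300a and Cd300lb were the most alike (r = 0.963) and Cd200r1 and Sirpa the least alike of the 6 falling genes (r = 0.272).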

How the data were processed

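Per the labels and the study's methods, poly(A) RNA of 12 PMφ cultures was sequenced with a directional kit. The authors ran Trimmomatic (0.32) on the reads, STAR (2.5.1b) for alignment to GRCm38 (mm10), and featureCounts for counts over GENCODE exons, and their own tests used DESeq2. Whether counting used the strand is not given in the sources used here. The deposited signal, called the normalized count here, holds whole numbers. Their spacing is that of gene counts scaled by a library factor and then rounded, and the factors were estimated from that spacing. Of the symbols, 18273 were at 0 in every library, and 25 had been turned into dates, hold at most 0.165% of a library and were not assigned.

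Here, groups were compared with limma 3.58.1 (R 4.3.3; lmFit, eBayes with a trend) on log2(normalized count + 1), after removal of genes that reached 10 in fewer than 3 libraries of the comparison. A comparison used its 6 libraries and the interaction all 12. Tests were two-sided. A gene was called when its p, adjusted by Benjamini-Hochberg over all genes tested, was under 0.1. A count test was not run because whole reads were not recovered. Without a block, p-values measure the spread between libraries within groups, which is read as the spread between pools. With the replicate number as a block, they measure how far group differences vary from number to number.

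The members and lists were chosen with earlier results of these data known. Of 69 listed genes beside the members, 67 were matched, some by older symbols. From each list the called genes are named, or the 3 largest rises and 3 largest falls where over 6 were called. One gene that this rule names is not reported here. Promoters came from RefSeq (GRCm38.p6). Positions and exon lengths came by symbol from a later GENCODE release than the authors counted over. The labels number the replicates 1 to 3. Deviations from group means of same-numbered libraries had correlations of 0.330 to 0.733 over genes, which are not independent, in all 4 comparisons. The highest between other numbers was 0.071. Deviations cancel out within a group, so positive same-numbered correlations push the others down, and the latter are no neutral reference. From the same-numbered correlations, the numbers are taken to pair the libraries. The blocked value is given where it changes a call of a receptor gene or of a listed gene. Alternatives were other pseudocounts, filters, scalings and thresholds, no variance trend, all 12 libraries in 1 fit, the replicate block and each library left out.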

Additional observations from a re-analysis of the deposited data

Results flagged for a closer look

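In 5 listed genes the oxLDL difference had one sign in all 3 replicate numbers without LPS and the opposite sign in all 3 with LPS, which was also the case for 4.12% of 13482 genes. The test of the difference itself (the interaction) passed for none of them. The mean log2 differences without and with LPS were 0.41 and -0.36 for Cd33 (interaction -0.77), -0.19 and 0.25 for Lair1 (0.44), 0.28 and -0.26 for Milr1 (-0.53), -0.04 and 0.62 for Inpp5d (0.66) and 0.15 and -0.23 for Lyn (-0.38). None of the 7 receptor genes showed this pattern. Groups of 3 libraries were too small for a test of single outlying samples.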

How the results depend on the processing

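Of 659 values of the 7 receptor genes under alternatives, 620 stayed on their side of the threshold with the same direction or within 1 SE, 14 lost a call, 19 gained one, 6 moved and 0 called values changed sign. In LPS against control the Sirpa call was lost without control replicate 3 and in the blocked fit without number 3. In oxLDL+LPS against oxLDL the number of receptor genes called was 3 to 6 with a library left out, and 3 without oxLDL+LPS replicate 3, where Siglece was not tested. There, Cd300lf was lost with no filter and with no variance trend, Sirpa with no filter, and the blocked fit without number 1 called Cd200r1 (-0.59). The replicate block, by the pairing of numbers, raised the calls in oxLDL against control from 0 to 1 receptor gene and from 0 to 10 listed genes. The receptor genes called were 1 without number 1, 0 without number 2 and 3 without number 3, and the listed genes 4, 2 and 12. In oxLDL+LPS against LPS the replicate block called 3 receptor and 16 listed genes, and the blocked fit of all 12 libraries, chosen after seeing the data, 3 and 10. The latter fit called 0 and 0 in oxLDL against control. Leaving out numbers 1, 2 and 3 in turn from the blocked fit gave 2, 4 and 0 receptor genes and 1, 25 and 0 listed genes. With a library left out of the unblocked fit, 0 to 1 receptor genes and 0 to 1 listed genes were called, the highest without oxLDL+LPS replicate 2. Over all genes, calls in oxLDL against control went from 0 to 601 with the block (6 in the blocked fit of all 12 libraries, and 214, 139 and 1285 without numbers 1, 2 and 3), and in oxLDL+LPS against LPS from 0 to 1682 (1048 with all 12 libraries, and 29 with all 12 and no block). The interaction called 6 genes without oxLDL+LPS replicate 2 and 9 in the blocked fit without number 2, with 0 receptor genes in each. The cause of these changes was not tested. In the LPS comparisons the block changed no receptor call. A count test on recovered reads was not run, because the reads were not recovered whole. In both LPS comparisons Siglece gave no value where at least 10 was required in every library or where a library with LPS was left out, since it then failed the filter. Depth limits Siglece most, with at most 8 normalized counts in libraries without LPS.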
